A study of Rattus norvegicus with 30 samples.

Results

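The genes described here are 10 antioxidant and glutathione genes, Slc7a11, Gclc, Gclm, Gsr, Txnrd1, Prdx1, Srxn1, Nqo1, Sod2 and Cat, taken by symbol from a table of 17353 genes, in which all 10 had a row. The cells were the REF line of rat embryonic fibroblasts, labelled as not transformed. Unstarved cells served as control, and 9 further groups went without serum for 2, 3, 4, 6, 8, 10, 12, 14 or 16 days. There were 3 libraries per group, called biological replicates by the submitters, and 30 bulk RNA-seq libraries in all. Fibroblasts deprived of serum stop dividing and enter quiescence, and the series asks about the depth of that state between proliferation and senescence and about the lysosome's part in it. Values are FPKM, a level that takes account of transcript length, so genes can be compared with each other. In bulk RNA, fewer cells with a transcript and less transcript per cell cannot be told apart.

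Glutathione is the main small thiol of the cell. Its synthesis needs cysteine, taken up as cystine by the transporter Slc7a11, and is limited by glutamate-cysteine ligase, made of the catalytic subunit Gclc and the modifier subunit Gclm. Glutathione reductase (Gsr) and thioredoxin reductase (Txnrd1) use NADPH to keep the glutathione and thioredoxin systems reduced. Peroxiredoxin 1 (Prdx1) removes peroxide and is repaired by sulfiredoxin (Srxn1) when over-oxidised, and Nqo1 reduces quinones. Superoxide dismutase 2 (Sod2) turns superoxide into hydrogen peroxide in mitochondria, and catalase (Cat) breaks hydrogen peroxide down in peroxisomes. Many of these genes are known targets of the transcription factor NRF2 (gene Nfe2l2), which binds antioxidant response elements with a small MAF partner and is held back by KEAP1. Sod2 and Cat are also known targets of FoxO factors.

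The core of the antioxidant response element, TGACNNNGC on either strand, was looked up in the 250 bases upstream of the annotated start in RefSeq (build GRCr8), which held 9 of the 10 members in 10 windows, Txnrd1 having 2. Gsr had no entry. Of all 33469 windows in that table, 10.1% held the core, 6.34% the AP-1 motif TGANTCA and 3.21% the FoxO motif GTAAACA. The core was found upstream of 4 members, which are shown because their courses over the starved days differed. At day 2 Gclm, Txnrd1 and Sod2 were lower than control, and Prdx1 did not pass the test. After that Txnrd1 fell again from day 8 to day 16, whereas Prdx1 and Sod2 climbed over days 2 to 16. Capitals mark the match, which in all 4 is on the strand opposite to the gene and so reads as its reverse complement.
Gclm, chr2:213031939-213031995, plus strand: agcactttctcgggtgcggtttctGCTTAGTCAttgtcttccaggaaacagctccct
Txnrd1, second window, chr7:22755950-22756006, minus strand: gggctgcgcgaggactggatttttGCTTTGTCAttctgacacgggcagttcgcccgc
Prdx1, chr5:135383747-135383803, plus strand: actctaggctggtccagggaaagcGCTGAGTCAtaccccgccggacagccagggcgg
Sod2, chr1:50050171-50050227, minus strand: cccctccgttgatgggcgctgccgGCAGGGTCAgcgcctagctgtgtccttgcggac

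The match lay 172 bases upstream of the start of Gclm, 78 of Txnrd1, 135 of Prdx1 and 35 of Sod2, counted to its first base as printed. The AP-1 motif was found upstream of 2 members. In Prdx1 it lay 248 and 133 bases upstream, and the nearer copy overlaps the core shown. In Srxn1 it lay 62 bases upstream, and that window is shown because Srxn1 rose over the starved days.
Srxn1, chr3:161064726-161064780, plus strand: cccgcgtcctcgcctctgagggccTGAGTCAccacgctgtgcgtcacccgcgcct

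The FoxO motif was found upstream of 0 members. These matches describe the letters of the windows only, and elements farther from the start were not searched.

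Libraries were alike in the number of genes detected, with 8709 to 8887 genes at 1 FPKM or more, while their FPKM sums ran from 582501 to 785072. Read depth is unknown, so no limit of detection can be given. Of 8 fibroblast markers, Vim, Fn1, S100a4, Col1a1 and Pdgfrb had means of 282 to 4701 FPKM, Col1a2 was listed at 0 in all 30 libraries, and Thy1 and Pdgfra reached at most 0.230 and 1.52 FPKM. The 8 together summed to 13962 to 16310 FPKM in control, 20304 to 24768 at day 2 and 11443 to 12751 at day 16. The 6 macrophage markers summed to 6.90 to 7.40 FPKM in control and at most 1.93 in starved libraries. Among them Csf1r and Cd14 reached 4.62 and 3.09 FPKM, Ptprc and Itgam at most 0.0336 and 0.164, and Adgre1 and Aif1 were at 0. The 5 endothelial markers summed to at most 0.763, with Cdh5 and Kdr at 0. Of the 5 epithelial markers, Krt8 made up nearly all of a sum that was 10.7 to 12.9 in control and 62.2 to 75.8 at day 16, while Epcam and Cdh1 stayed under 0.1. The part of these in the members' changes was not tested. Libraries numbered replicate 1 had the lowest FPKM sum in 8 of the 10 groups and were lower in several members, as given with each gene.

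**Figure D1:**
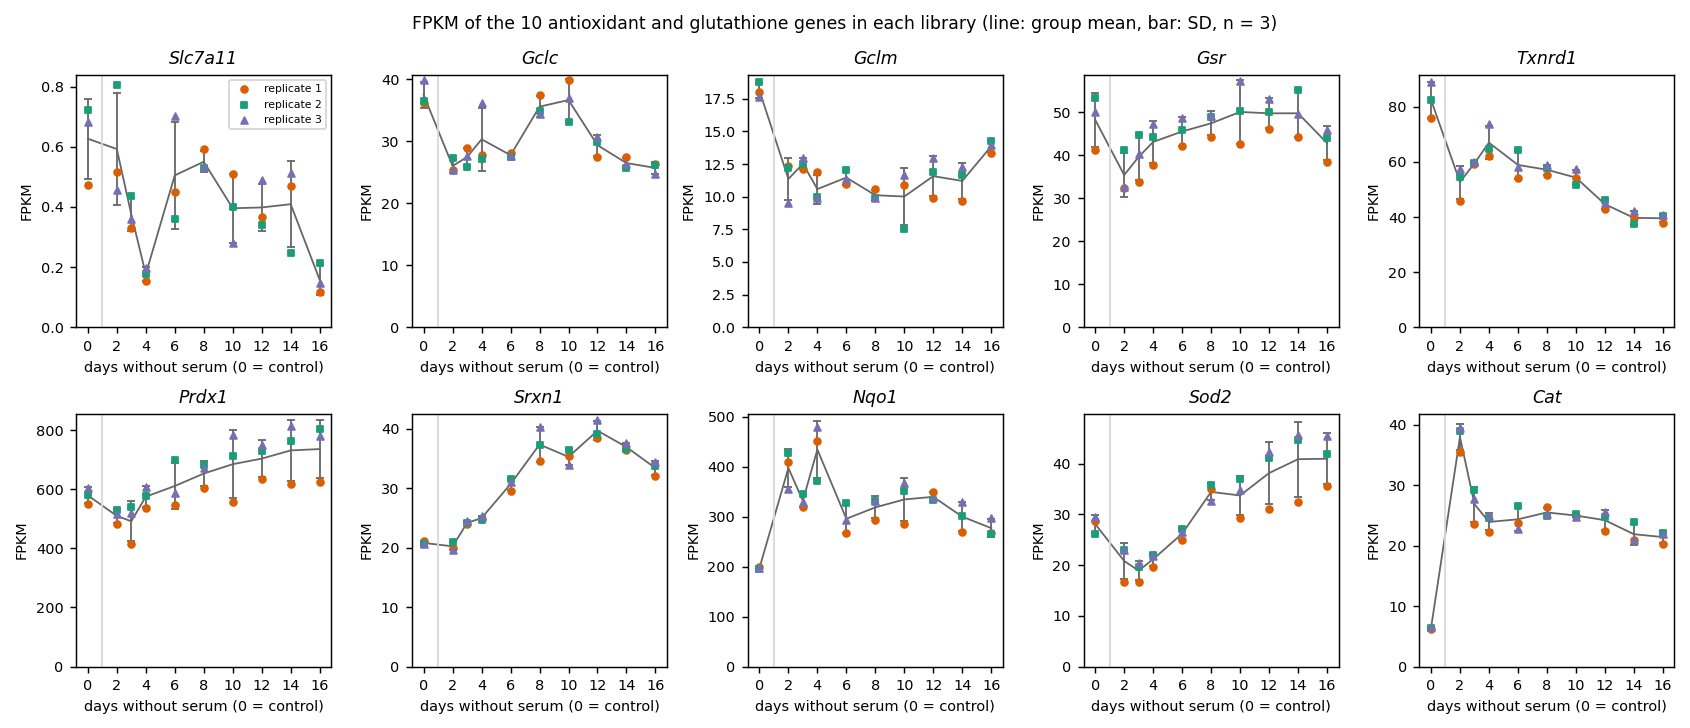
FPKM of each of the 10 members (vertical axis, starting at 0 in every panel) against days without serum, with control at 0; each point is 1 library with its replicate number as marker, and the line runs through the group means, with bars of 1 SD (3 libraries). Cat and Nqo1 step up from control to day 2, Sod2, Srxn1 and Prdx1 climb over the starved days, and Txnrd1 ends at 39.5 FPKM after 82.5 in control.

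By level, Prdx1 was the most abundant member, with a mean of 628 FPKM over the 30 libraries, followed by Nqo1 at 323. Txnrd1 (55.6), Gsr (45.1), Srxn1 (30.4), Sod2 (30.3), Gclc (30.3), Cat (23.7) and Gclm (12.1) lay between. Slc7a11 had a mean of 0.419 FPKM and ran from 0.116 to 0.805 over the libraries. It was the 1 member under the limit for the tests, a mean of 1 FPKM,, so 9 of the 10 members were tested and Slc7a11 is given as values only.

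The range over the 10 groups differed widely between members. The highest group mean was 5.98 times the lowest for Cat, 3.97 for Slc7a11, 2.21 for Nqo1, 2.17 for Sod2, 2.09 for Txnrd1 and 1.96 for Srxn1. For Gclm it was 1.81, for Prdx1 1.5, for Gclc 1.46 and for Gsr 1.41. With the groups put in order of their means, 9 pairs of neighbours can be compared for each gene. All 9 overlapped for Gclc and Gsr, 8 for Slc7a11, Prdx1 and Sod2, 7 for Nqo1, Gclm and Cat, 6 for Txnrd1 and 4 for Srxn1. The order comes from the same means, and the share of all genes with as many pairs apart was not counted. These counts therefore describe the members only.

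After 2 days without serum the members split. Cat and Nqo1 rose, Gclc, Gclm, Txnrd1, Gsr and Sod2 fell, and Srxn1 and Prdx1 did not pass the test. That is 2 of 9 higher, where 30% of all 8940 genes tested were higher, and 5 of 9 lower, where 30.7% of all genes were lower. The median change of the 9 was -0.43 (log2), against 0.00 over all genes. Changes are differences of log2(FPKM + 1) with the SE of a limma fit of all 10 groups, and p was adjusted over all genes by the Benjamini-Hochberg method with a threshold of 0.05. Folds are read from that scale and understate the change of genes near 0.

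Cat had the largest change of the members at day 2. Its level was 6.22, 6.30 and 6.50 FPKM in the control libraries and 35.5, 39.0 and 39.4 at day 2. Every day 2 library was above every control library by a wide margin. The rise was 2.41 ± 0.08 (log2, limma adjusted p = 2.12e-18), a 5.30-fold change. Nqo1 was at 199, 196 and 197 FPKM in control and 410.3, 428 and 355 at day 2. The groups did not overlap, and the SD of the control libraries was 1.62 FPKM. Nqo1 rose by 1.01 ± 0.10 (log2, limma adjusted p = 4.09e-09), or 2.01-fold.

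Both subunits of glutamate-cysteine ligase fell at day 2. Gclc was at 36.1, 36.5 and 39.9 FPKM in control and 25.4, 27.3 and 25.4 at day 2, a change of -0.51 ± 0.09 (log2, limma adjusted p = 1.28e-05). Gclm was at 18.0, 18.8 and 17.6 FPKM in control and 12.3, 12.2 and 9.52 at day 2, a change of -0.64 ± 0.12 (adjusted p = 7.35e-05 in the same limma fit). For neither subunit did the groups overlap.

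Both NADPH-dependent reductases fell as well. Txnrd1 was at 76.1, 82.4 and 89.1 FPKM in control and 46.0, 54.4 and 57.6 at day 2, with no overlap, a change of -0.64 ± 0.08 (log2, limma adjusted p = 2.24e-07). Gsr was at 41.3, 53.4 and 50.0 FPKM in control and 32.4, 41.2 and 32.5 at day 2, a change of -0.44 ± 0.12 (limma adjusted p = 0.00362). The groups lay close together for Gsr, the lowest control library being at 41.3 and the highest day 2 library at 41.2. Replicate 1 was the lowest library for Gsr in 10 of the 10 groups, and for Txnrd1 in 8.

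Sod2 was at 28.7, 26.1 and 29.5 FPKM in control and 16.7, 22.9 and 22.9 at day 2. The groups did not overlap, and day 2 replicate 1 was the lowest of the 6 libraries. The change was -0.43 ± 0.13 (log2, limma adjusted p = 0.00773), a call that was lost without day 2 replicate 1 (-0.28, adjusted p = 0.0798). Srxn1 did not pass, with 21.2, 20.7 and 20.6 FPKM in control and 20.0, 21.0 and 19.7 at day 2 (limma adjusted p = 0.582). Prdx1 did not pass either, with 552, 581 and 606 FPKM in control and 484, 529 and 517 at day 2 (-0.18 ± 0.13, limma adjusted p = 0.221). With the replicate number as a block, Prdx1 was called lower (limma adjusted p = 0.0286), as it also was after each library was rescaled to the same FPKM sum (-0.18, adjusted p = 0.0321). Slc7a11 was at 0.474, 0.723 and 0.683 FPKM in control and 0.516, 0.805 and 0.456 at day 2, with overlapping groups.

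**Figure D2:**
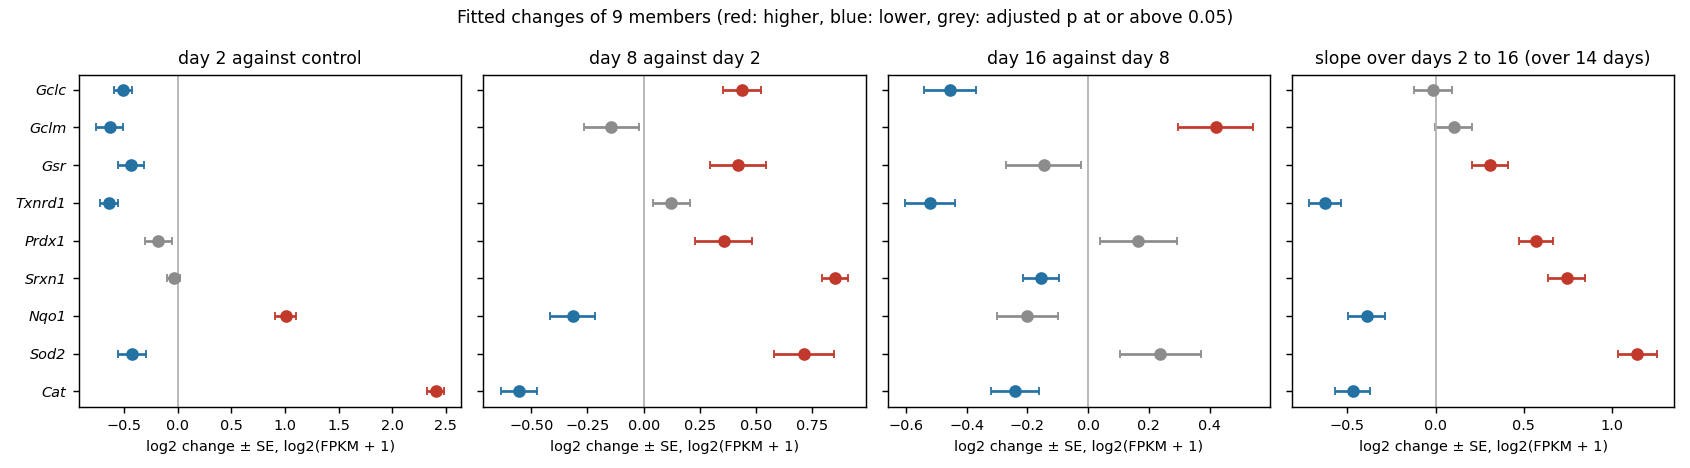
Fitted log2 change ± SE of the 9 tested members in 4 comparisons; the horizontal scale differs between panels. Cat (2.41) and Nqo1 (1.01) lie to the right at day 2, Srxn1 (0.85) and Sod2 (0.71) from day 2 to day 8, and Txnrd1 (-0.52) and Gclc (-0.45) to the left from day 8 to day 16.

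Over days 2 to 16 the members did not follow a common course. With day as a number in a limma fit of the 27 starved libraries, Sod2, Srxn1, Prdx1 and Gsr had rising slopes and Txnrd1, Cat and Nqo1 falling ones, while Gclc and Gclm did not pass. That is 4 of 9 higher, where 26.6% of all genes were, and 3 of 9 lower, where 28.9% were. Each slope is printed as the change the line makes in 14 days. Rescaling every library to the same FPKM sum moved the median of all genes to -0.14 over 14 days, so that 1574 genes rose and 3258 fell in place of 2377 and 2587. On that scale the members called were the same apart from Gsr.

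To show where in time the changes lay, day 8 was set against day 2 and day 16 against day 8. From day 2 to day 8, 5 of 9 members rose (Srxn1, Sod2, Gclc, Gsr and Prdx1) and 2 fell (Cat and Nqo1), where 17.4% of all genes rose and 18.4% fell. From day 8 to day 16, 1 of 9 rose (Gclm) and 4 fell (Txnrd1, Gclc, Cat and Srxn1), where 15.8% of all genes rose and 14.4% fell. The difference between the 2 stretches, the later change less the earlier one, was itself tested. It was positive for 1 of 9 members (Gclm), where 15.4% of all genes were called positive, and negative for 4 (Srxn1, Gclc, Txnrd1 and Gsr), where 13.9% were called negative. On the scale of equal FPKM sums the median of all genes moved to 0.10 for the earlier stretch, -0.16 for the later one and -0.27 for their difference, with 2089 genes up and 1177 down, 730 and 2458, and 809 and 2281. On the deposited scale these numbers were 1559 and 1642, 1412 and 1291, and 1380 and 1247.

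Sod2 had the steepest rising slope of the members, 1.14 ± 0.11 (log2 over 14 days, limma adjusted p = 9.92e-10), or 2.21-fold. It was at 16.7, 22.9 and 22.9 FPKM at day 2, 35.1, 35.7 and 32.6 at day 8, and 35.5, 42.0 and 45.4 at day 16. Every library of days 8 and 16 was above every library of day 2. The rise from day 2 to day 8 was 0.71 ± 0.13 (limma adjusted p = 0.00013), and the change from day 8 to day 16 did not pass (0.24 ± 0.13, adjusted p = 0.188). It was called with replicates 2 and 3 only (0.35, adjusted p = 0.00321). Ordered by mean, Sod2 ran from day 3 through days 2, 4 and 6, control, days 10, 8, 12 and 14 to day 16, and of the 9 neighbouring pairs 8 overlapped, the exception being days 4 and 6. Replicate 1 was the lowest Sod2 library in 8 of the 10 groups, 0.15 (log2) below the group mean on average.

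Srxn1 rose in steps that were large against its replicate spread. It was at 20.0, 21.0 and 19.7 FPKM at day 2, 24.2 ± 0.261 (SD, n = 3) at day 3, and 24.9, 24.7 and 25.4 at day 4. It reached 29.6, 31.5 and 31.0 FPKM at day 6, 34.6, 37.2 and 40.3 at day 8, and was highest at day 12 with 38.5, 39.2 and 41.5. No library of an earlier time overlapped the next among control and days 3, 4 and 6, and the means of days 8 to 14 lay between 35.3 and 39.7. At day 16 it was back at 32.1, 33.7 and 34.4 FPKM. The slope was 0.74 ± 0.11 (log2 over 14 days, limma adjusted p = 1.12e-06). The rise to day 8 was 0.85 ± 0.06 (limma adjusted p = 8.73e-12), and the later stretch differed from the earlier by -1.01 ± 0.10 (adjusted p = 2.03e-08). The fall from day 8 to day 16 was small, -0.16 ± 0.06 (limma adjusted p = 0.0457), and this call was lost in 5 of the 6 fits that left out 1 library of either day (adjusted p up to 0.261). It was also lost with no trend (adjusted p = 0.0511), upper quartile rescaling (0.0604), replicates 2 and 3 only (0.0636), quantile normalization (0.0837) and a fit of the compared groups only (0.18).

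Prdx1, the substrate of Srxn1, also climbed. It was at 484, 529 and 517 FPKM at day 2, 604, 683 and 674 at day 8, and 624, 805 and 781 at day 16. Days 8 and 16 lay above day 2 in every library, and replicate 1 was the lowest in 10 of the 10 groups, by 0.16 (log2) from the group mean on average. The slope was 0.57 ± 0.09 (log2 over 14 days, limma adjusted p = 9.73e-06). The rise to day 8 (0.36 ± 0.13, limma adjusted p = 0.0312) was lost without day 8 replicate 2 or 3 or without day 2 replicate 1 or 3 (adjusted p up to 0.0991). The change from day 8 to day 16 did not pass (0.17 ± 0.13, limma adjusted p = 0.346), though it was called with replicates 2 and 3 only (0.22, adjusted p = 0.0375).

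Gsr came back from its low at day 2. It was at 32.4, 41.2 and 32.5 FPKM at day 2, 44.2, 48.9 and 49.1 at day 8, and 38.5, 44.1 and 45.9 at day 16. The day 8 libraries all lay above those of day 2, whereas day 16 overlapped both. From day 8 to day 16 the change did not pass (-0.15 ± 0.12, limma adjusted p = 0.395), though on the scale of equal FPKM sums Gsr was called lower (-0.31, adjusted p = 0.012). The rise to day 8 was 0.42 ± 0.12 (log2, limma adjusted p = 0.00921). The slope, 0.31 ± 0.10 over 14 days (limma adjusted p = 0.0114), was lost with day 2 left out (0.19, adjusted p = 0.13) and on the scale of equal FPKM sums (0.18, adjusted p = 0.133). The difference between the stretches, -0.57 ± 0.21 (adjusted p = 0.0487), was lost in 7 of the 9 fits that left out 1 library (adjusted p up to 0.161), and with pseudocount 5 (0.0501), no trend (0.0569) or no filter (0.0668).

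Txnrd1 fell in the later days. It was at 46.0, 54.4 and 57.6 FPKM at day 2, 62.3, 64.8 and 73.8 at day 4, and 55.1, 57.7 and 58.7 at day 8. Day 12 had 42.8, 46.0 and 45.1 FPKM, day 14 had 39.6, 37.3 and 42.2, and day 16 had 37.8, 40.3 and 40.6. Days 14 and 16 overlapped each other and lay under every library of the other 8 groups. The slope was -0.62 ± 0.09 (log2 over 14 days, limma adjusted p = 1.33e-06). The change from day 2 to day 8 did not pass (0.12 ± 0.08, limma adjusted p = 0.266), the fall from day 8 to day 16 was -0.52 ± 0.08 (adjusted p = 2.56e-05), and the difference of the stretches was -0.64 ± 0.14 (adjusted p = 0.00107). On the scale of equal FPKM sums the earlier change was called as a rise (0.22, adjusted p = 0.0373).

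The catalytic and modifier subunits of glutamate-cysteine ligase parted in mid course. Gclc was at 25.4, 27.3 and 25.4 FPKM at day 2, 37.5, 34.9 and 34.4 at day 8, 39.9, 33.2 and 36.9 at day 10, and 26.4, 26.1 and 24.7 at day 16. Days 8 and 10 overlapped the control libraries, and day 16 overlapped day 2. Gclc rose by 0.44 ± 0.09 to day 8 (log2, limma adjusted p = 0.000204), fell by 0.45 from day 8 to day 16 (SE 0.09, limma adjusted p = 0.000219) and differed between the stretches by -0.89 ± 0.15 (adjusted p = 4.29e-05). A straight line over the days does not show this, and the slope was -0.01 ± 0.11 (limma adjusted p = 0.92). Gclm was at 10.6, 9.87 and 9.87 FPKM at day 8, 10.9, 7.51 and 11.6 at day 10, and 13.3, 14.3 and 14.0 at day 16. The day 16 libraries lay above those of every other starved day and under those of control. The change of Gclm to day 8 did not pass (-0.15 ± 0.12, limma adjusted p = 0.383), and the rise from day 8 to day 16 was 0.42 ± 0.12 (adjusted p = 0.0107). That rise was lost on the scale of equal FPKM sums (0.26, adjusted p = 0.137), and the difference between the stretches (0.56 ± 0.21, adjusted p = 0.0463) was lost in 8 of the 9 fits that left out 1 library (adjusted p up to 0.138), and with no filter (0.0604), replicates 2 and 3 only (0.101) or equal FPKM sums (0.315).

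The ratio of Gclc to Gclm within a library puts both courses together. It was 2.01, 1.94 and 2.26 in control, 2.06, 2.23 and 2.66 at day 2, 3.54, 3.54 and 3.48 at day 8, and 3.66, 4.42 and 3.17 at day 10. By day 16 it was 1.98, 1.83 and 1.76. The libraries of days 8 and 10 all lay above those of every other group except day 4, where replicate 3 reached 3.64. No test was run on the ratio.

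**Figure D3:**
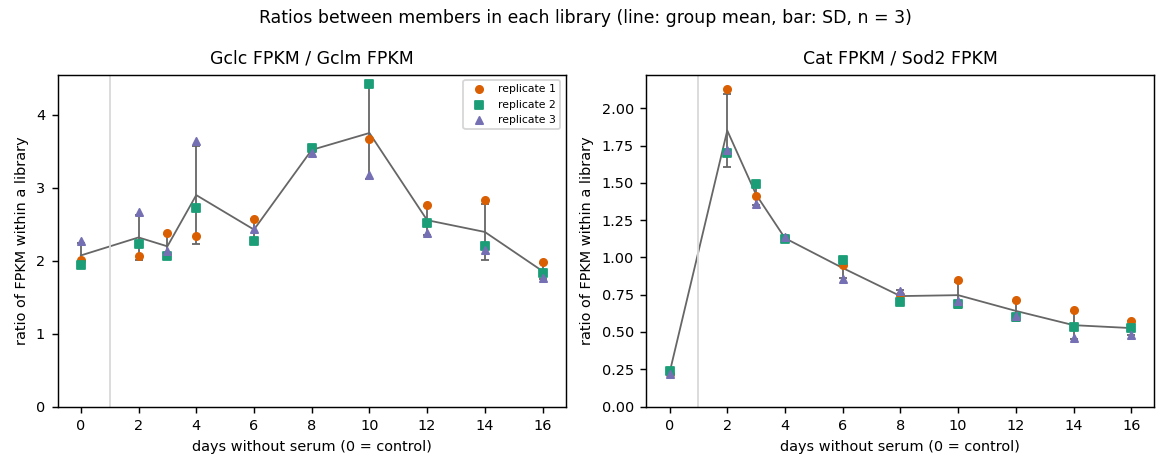
Ratio of FPKM of Gclc to Gclm (left) and of Cat to Sod2 (right) in each library against days without serum, with control at 0; the line runs through the group means, with bars of 1 SD (3 libraries). The Gclc to Gclm ratio peaks at days 8 and 10 (means 3.52 and 3.75), and the Cat to Sod2 ratio goes from 0.226 in control to 1.85 at day 2 and 0.526 at day 16.

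Cat and Nqo1, the 2 members that rose at day 2, came part of the way down. Cat was at 35.5, 39.0 and 39.4 FPKM at day 2, 23.6, 29.2 and 27.7 at day 3, 26.3, 24.9 and 25.2 at day 8, and 20.3, 22.0 and 21.9 at day 16. Day 2 lay above every other group, and every starved library lay above control. The slope was -0.47 ± 0.10 (log2 over 14 days, limma adjusted p = 0.000231) and the change to day 8 -0.56 ± 0.08 (adjusted p = 3.73e-06). Across the alternatives the slope ran from -0.60 to -0.24 and kept its call. The change from day 8 to day 16, -0.24 ± 0.08 (limma adjusted p = 0.0238), was lost without day 16 replicate 1 or day 8 replicate 1 or 3 (adjusted p up to 0.0978) and with replicates 2 and 3 only (-0.18, adjusted p = 0.118). From control to day 2 Cat rose and Sod2 fell. Cat then came down mainly between day 2 and day 3, from a mean of 37.9 to 26.9 FPKM. Its means at days 4 to 12 lay between 23.9 and 25.5 FPKM, and the mean at day 16 was 21.4. Sod2 climbed over the starved days. The ratio of Cat to Sod2 within a library was 0.217, 0.241 and 0.220 in control, 2.13, 1.70 and 1.72 at day 2, and 0.572, 0.524 and 0.482 at day 16.

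Nqo1 was at 410.3, 428 and 355 FPKM at day 2, 320, 346 and 330 at day 3, and 452, 371 and 481 at day 4. It was at 293, 331 and 332 FPKM at day 8, and 268, 265 and 298 at day 16. Days 2 and 4 overlapped, day 3 lay under every library of both, and all starved libraries lay above control. The slope was -0.39 ± 0.10 (log2 over 14 days, limma adjusted p = 0.00244). The change to day 8, -0.32 ± 0.10 (limma adjusted p = 0.0163), was lost without day 8 replicate 1 or day 2 replicate 1 or 2 (adjusted p up to 0.0871), with replicates 2 and 3 only (-0.23, adjusted p = 0.114) and on the scale of equal FPKM sums (-0.21, adjusted p = 0.0598). The change from day 8 to day 16 did not pass (-0.20 ± 0.10, limma adjusted p = 0.142). It was called lower on the scale of equal FPKM sums and after quantile normalization (-0.37 and -0.24, adjusted p = 0.00199 and 0.0212).

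Slc7a11 stayed under 1 FPKM in every library. It was at 0.153, 0.178 and 0.199 FPKM at day 4 and 0.116, 0.213 and 0.145 at day 16, and these groups overlapped each other and lay under the other 8 groups. Day 8 had 0.591, 0.528 and 0.532 FPKM, within the range of control. Its partner in the cystine transporter, Slc3a2, which also serves other amino acid transporters, was far more abundant, at 106 ± 5.36 FPKM in control and 175 ± 4.95 at day 16 (SD, n = 3).

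At the longest time, day 16, Cat, Srxn1, Sod2, Nqo1 and Prdx1 were above control and Txnrd1, Gclc and Gclm below it, and Gsr did not pass. That is 5 of 9 higher, where 32.4% of all genes were higher, and 3 of 9 lower, where 35% were lower. This comparison uses the same control libraries as the one at day 2, so the values are set side by side only. Cat differed from control by 2.41 at day 2 and 1.61 ± 0.08 at day 16 (log2, limma adjusted p = 1.97e-15), and Nqo1 by 1.01 and 0.49 ± 0.10 (adjusted p = 0.000152). Srxn1 differed by -0.04 and 0.66 ± 0.06 (limma adjusted p = 2.45e-10), and Sod2 by -0.43 and 0.52 ± 0.13 (adjusted p = 0.00132). Txnrd1 differed by -0.64 and -1.04 ± 0.08 (limma adjusted p = 2.38e-11), and Gclc by -0.51 and -0.53 ± 0.09 (adjusted p = 6.2e-06).

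The Prdx1 call at day 16 (0.34 ± 0.13, limma adjusted p = 0.0225) was lost without day 16 replicate 2 or 3 or control replicate 1 (adjusted p up to 0.103). The Gclm call (-0.36 ± 0.12, limma adjusted p = 0.0109) was lost after upper quartile rescaling (-0.25, adjusted p = 0.0613) and with replicates 2 and 3 only (-0.34, adjusted p = 0.0511). Gsr, at -0.16 ± 0.12 (adjusted p = 0.248), was called lower on the scale of equal FPKM sums (-0.23, adjusted p = 0.0341).

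**Figure D4:**
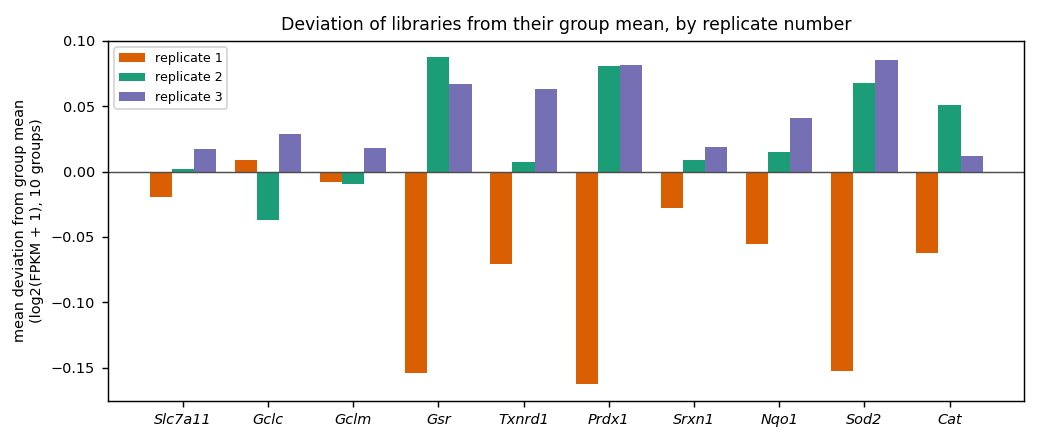
Mean deviation of replicate 1, 2 and 3 libraries from their group mean over the 10 groups, in log2(FPKM + 1), for each member. Replicate 1 bars reach -0.15 to -0.16 for Gsr, Prdx1 and Sod2, whereas Gclc, Gclm, Srxn1 and Slc7a11 stay within 0.04 of 0.

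Across the 10 group means (log2), the members formed no single pattern. The highest correlations were those of Prdx1 with Sod2 (Pearson r = 0.965), Srxn1 with Prdx1 (0.855), Nqo1 with Cat (0.851) and Srxn1 with Sod2 (0.813). The lowest were those of Gclm with Cat (-0.814) and with Nqo1 (-0.798). Txnrd1 had negative values with Srxn1, Prdx1 and Sod2 (-0.649, -0.626 and -0.618). These describe 10 points that share libraries and time order. The control point weighs on those of Cat, Nqo1, Gclm and Txnrd1, whose control libraries lay apart from all starved ones.

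From the 7176 genes whose mean reached 5 FPKM, the 3 closest to each member by the same correlation were looked up. Nqo1 was closest to the NADPH-producing malic enzyme Me1 (r = 0.947), then Zfp580 and Btd. Cat was closest to Agrn, Herpud2 and Pigv (0.984 to 0.977), Sod2 to Amacr, Copg2 and Pygb (0.984 to 0.977) and Prdx1 to Fam32a, Tmem98 and Rab3ip (0.987 to 0.978). Srxn1 was closest to Zfand2a, Ptdss1 and the vacuolar ATPase subunit gene Atp6v1b2 (all 0.984), and Txnrd1 to Rexo1, Actr3 and Ptbp1 (0.987 to 0.981). Gclc was closest to Smim3, Kifc3 and Stk11 (0.962 to 0.904), Gclm to Eral1, Gtf2h4 and the cell cycle factor E2f1 (0.956 to 0.938), Gsr to Ybx1, Rnf7 and Naa38 (0.952 to 0.926) and Slc7a11 to Traf3ip2, Zfpl1 and Mtss1 (0.866 to 0.847). These genes were picked out of all 7176 for their likeness, so the values describe 10 group means and carry no test. The control mean is among them, and E2f1 was at 38.7 FPKM there against 5.74, 6.20 and 12.4 at days 2, 8 and 16.

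The transcript of NRF2 itself went up and then down within a narrow range. Nfe2l2 was at 111 ± 6.4 FPKM in control, 139 ± 4.77 at day 2, 135 ± 4.93 at day 8 and 99.1 ± 3.4 at day 16 (SD, n = 3). It rose at day 2 by 0.32 ± 0.07 (log2, limma adjusted p = 0.000386) and fell from day 8 to day 16 by 0.44 (SE 0.07, limma adjusted p = 4.11e-05). The slope of Nfe2l2 over days 2 to 16 was -0.31 ± 0.09 (log2 over 14 days, limma adjusted p = 0.00323). Keap1, which targets NRF2 for breakdown, rose at day 2 by 0.20 ± 0.08 (limma adjusted p = 0.0359) and had no slope past the threshold (0.10 ± 0.07, adjusted p = 0.216). Bach1, a repressor at the same elements, did not pass at day 2 (0.31 ± 0.16, limma adjusted p = 0.0963) or for the slope (adjusted p = 0.376). Sqstm1, a cargo receptor that binds KEAP1, rose at day 2 by 0.69 ± 0.06 (limma adjusted p = 4.01e-10) and over the days by 0.79 ± 0.08 (adjusted p = 3.91e-09). The small MAF partner Mafk rose at day 2 by 1.11 ± 0.08 (limma adjusted p = 2.31e-12). Of the 11 tested genes of NRF2 and its control, 6 rose and 1 fell at day 2, where 30% of all genes rose and 30.7% fell. For the slope over days 2 to 16, 1 of the 11 rose and 4 fell. Of all genes 26.6% rose and 28.9% fell, so the number falling is near the background.

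Of the 15 tested NRF2 targets that are not members, 5 rose and 3 fell at day 2, and 7 rose and 1 fell over the days, with median changes of 0.16 and 0.29 (log2). The share of 5 in 15 at day 2 is near that of all genes (30% higher, 30.7% lower), and the slopes stand beside 26.6% higher and 28.9% lower. Heme oxygenase (Hmox1) was at 12.3 ± 0.344 FPKM in control, 25.7 ± 4.99 at day 2 and 153 ± 18.7 at day 16, a slope of 2.68 ± 0.15 over 14 days (limma adjusted p = 2.13e-14). The ferritin light chain gene Ftl1 had a slope of 2.43 ± 0.15 (limma adjusted p = 1.01e-13), and Osgin1 one of 2.56 ± 0.22 (adjusted p = 7.66e-11) from a day 2 level of 1.26 ± 0.564 FPKM. The aldehyde dehydrogenase Aldh3a1 rose at day 2 by 4.62 ± 0.21 (limma adjusted p = 5.99e-16), from 2.39 to 82.5 FPKM, and was at 0.23 FPKM at day 16. The reductase Akr1b8 fell at day 2 by 1.03 (SE 0.11, limma adjusted p = 1.01e-08).

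**Figure D5:**
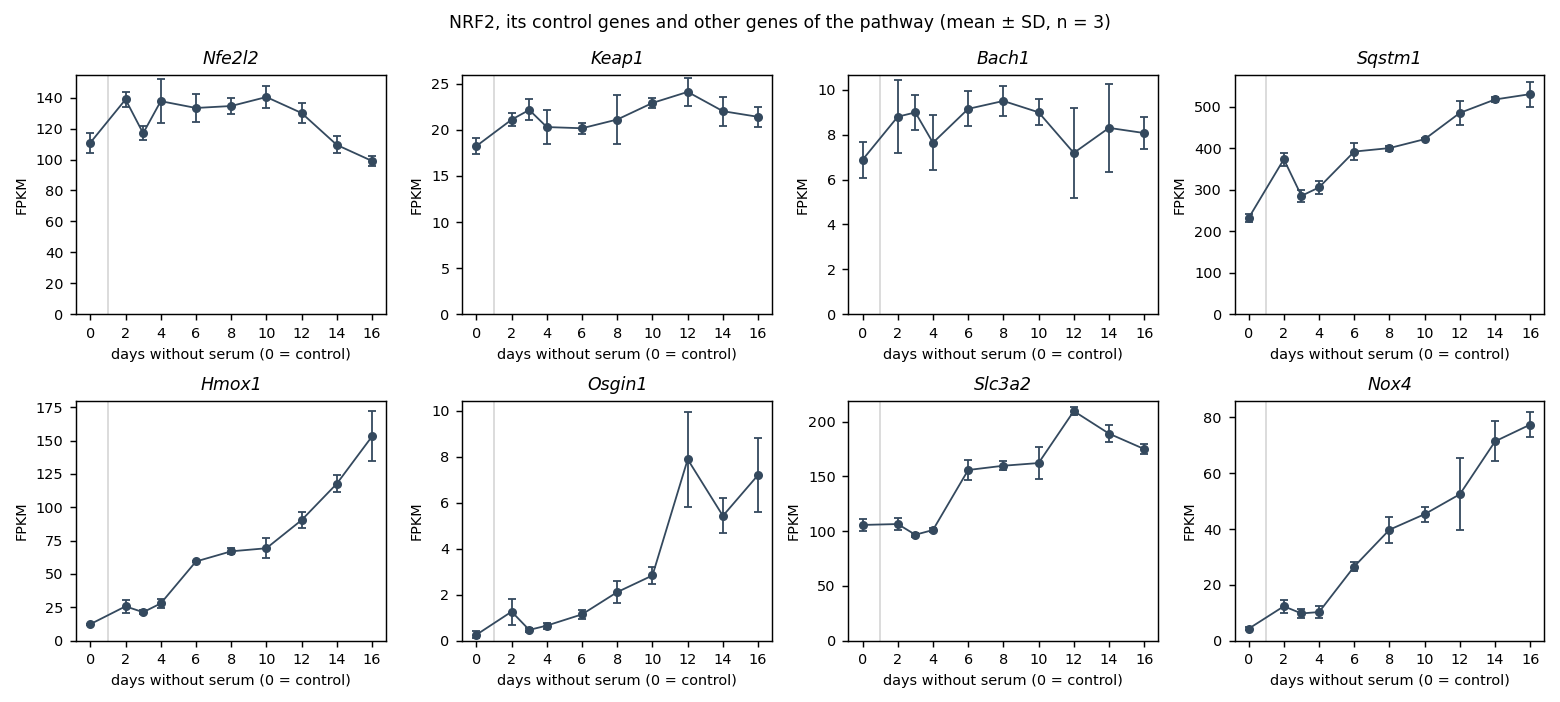
Mean FPKM ± SD of 3 libraries against days without serum, with control at 0, for NRF2 (Nfe2l2), 3 genes of its control, the NRF2 targets Hmox1 and Osgin1, the transporter subunit Slc3a2 and the oxidase Nox4. Nfe2l2 stays between 99.1 and 140.4 FPKM, whereas Hmox1 goes from 12.3 in control to 153 at day 16 and Nox4 from 4.24 to 77.5.

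The counts in each list that follows stand beside the same shares of all genes, 30% higher and 30.7% lower at day 2, and 26.6% higher and 28.9% lower over the days. Of the 8 tested genes of glutathione synthesis and breakdown that are not members, 4 rose and 0 fell at day 2, and 3 rose and 0 fell over the days. Oplah, which returns oxoproline to glutamate, rose at day 2 by 0.46 ± 0.09 (log2, limma adjusted p = 0.000158). Over the days Slc3a2, the cysteine-producing enzyme gene Cth and the cyclotransferase gene Ggct rose by 1.0 ± 0.11, 0.97 ± 0.12 and 1.01 ± 0.20 (limma adjusted p = 2.44e-08, 1.21e-07 and 0.000123). Of the 21 peroxidases, glutaredoxins and transferases that are not members, 4 rose and 3 fell at day 2, and 12 rose and 1 fell over the days, with a median slope of 0.59. Glutathione peroxidase 1 (Gpx1) fell at day 2 from 545 ± 36.9 to 90.7 ± 4.32 FPKM (-2.57 ± 0.12, limma adjusted p = 8.32e-16), and Gsto1 fell by 0.72 (SE 0.10, adjusted p = 1.85e-06). Transferase Gstm2 rose by 1.88 ± 0.12 at day 2 and by 0.94 ± 0.09 over the days (limma adjusted p = 2.88e-13 and 4.7e-10), but transferases of this family are near copies of each other and reads may be split between them. The glutaredoxin Glrx and the transferase Gstt2 had slopes of 1.25 ± 0.11 and 1.65 ± 0.17 (limma adjusted p = 2.07e-10 and 2.24e-09).

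Among the 13 tested thioredoxin and peroxiredoxin genes that are not members, 5 rose and 5 fell at day 2, and 4 rose and 4 fell over the days, near the shares of all genes (30% and 30.7%, 26.6% and 28.9%). The sestrins Sesn2 and Sesn1 rose at day 2 by 1.46 ± 0.10 and 1.55 ± 0.12 (log2, limma adjusted p = 5.26e-12 and 2.53e-11). Txnip, which binds thioredoxin, fell over the days by 3.1 (SE 0.38, limma adjusted p = 8.55e-08), and Txnrd3 rose by 1.65 ± 0.21 (adjusted p = 1.35e-07) from 0.892 FPKM at day 2. The cytosolic dismutase Sod1 fell at day 2 by 0.40 (SE 0.12, limma adjusted p = 0.00724), and Ccs, its copper chaperone, had a slope of 0.27 ± 0.17 that did not pass (adjusted p = 0.188). The metallothionein Mt1 was listed at 0 in all 3 libraries of day 2, where control had 11.8 ± 8.83 FPKM. Over the days Mt1 rose by 2.84 ± 0.49 (limma adjusted p = 1.5e-05). Its difference from control at day 16 did not pass (-0.81 ± 0.70, limma adjusted p = 0.312).

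Of 13 genes that supply NADPH, 6 rose and 3 fell at day 2 (30% and 30.7% of all genes), and 6 rose and 5 fell over the days (26.6% and 28.9% of all genes). Idh1, Pgd and Me1 rose at day 2 by 1.63 ± 0.08, 1.06 ± 0.07 and 0.73 ± 0.06 (log2, limma adjusted p = 3.8e-15, 9.63e-13 and 1.32e-10). Over the days Idh1 rose by 0.91 ± 0.11 and the mitochondrial Idh2 and Aldh1l2 fell by 0.59 and 1.27 (SE 0.10 and 0.23, limma adjusted p = 1.14e-07, 1.92e-05 and 3.85e-05). Of 5 FoxO and NF-kB factors, 3 rose and 0 fell at day 2 beside the same shares of all genes, Foxo4 by 1.19 ± 0.09, Foxo1 by 0.98 ± 0.21 and Nfkb1 by 0.27 ± 0.09 (limma adjusted p = 1.41e-11, 0.000349 and 0.0143). Over the days 0 rose and Nfkb1 fell by 0.23 (SE 0.08, limma adjusted p = 0.0118), while Foxo3 did not pass (-0.38 ± 0.21, adjusted p = 0.131).

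Among genes for enzymes that make oxidants, those called all rose. Of 7 tested, 3 rose and 0 fell at day 2 (30% and 30.7% of all genes), and 5 rose and 0 fell over the days (26.6% and 28.9% of all genes), with a median slope of 1.53 against -0.02 over all genes. The NADPH oxidase Nox4 was at 4.24 ± 0.53 FPKM in control, 12.3 ± 2.42 at day 2 and 77.5 ± 4.59 at day 16, a rise of 1.33 ± 0.16 at day 2 and of 3.06 ± 0.20 over the days (limma adjusted p = 5.59e-08 and 6.51e-13). The oxidase Nox1 and the xanthine dehydrogenase gene Xdh rose over the days by 2.2 ± 0.14 and 2.49 ± 0.23 (limma adjusted p = 2.2e-13 and 3.5e-10), and the monoamine oxidase Maoa rose at day 2 by 0.50 ± 0.11 (adjusted p = 0.000295). The phagocyte oxidase gene Cybb was listed at 0 in all 30 libraries.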

How the data were processed

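RNA-seq was carried out on total RNA of REF rat fibroblasts, 30 libraries in 10 groups of 3. The authors deposited 1 table of FPKM values, and the submitters' processing notes name Cuffnorm 2.2.1, Cufflinks, TopHat2 2.1.1 and the build rn6. Their annotation, filters and scaling across libraries are not given in the sources used here. The table holds no counts, so depth and counting precision are unknown.

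Groups followed the sample titles. Genes with a mean of at least 1 FPKM (8940 of 17353) were analysed as log2(FPKM + 1) in R 4.3.3 with limma 3.58.1 (eBayes, trend on the mean level). All tests are two-sided and adjusted over all 8940 genes by the Benjamini-Hochberg method at 0.05. Alternatives with another filter were adjusted over the genes they kept, 12370 with no filter and 7345 with at least 5 FPKM. One fit of 10 group means gave the contrasts, and the slope used day as a number in 27 libraries. The code was tested on simulated data.

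The members, lists, comparisons and alternatives were chosen with earlier results of these data known. Beside the 10 members, Nfe2l2, Keap1, Bach1 and Sqstm1, the text names from each list the 3 genes with the smallest p at day 2 and for the slope, and the 3 genes closest to each member; not every gene meeting the rule is described. Slc3a2 levels, Cybb, and the day 2 and day 16 levels of single genes were added after their values were seen. Alternatives were other pseudocounts (0.1 and 5), filters (none, or at least 5 FPKM), scalings, a replicate block, no trend, fits of the compared groups only, and leaving out libraries or time points.

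Replicate numbers were checked by correlating, across genes, the deviations of same-numbered libraries from their group means. For day 2 and control these were 0.592, 0.209 and 0.188, and for day 16 and control 0.440, 0.135 and 0.357. Day 16 with day 2 gave 0.433, 0.183 and 0.191. For day 8 they were 0.0773, 0.000524 and 0.156 with day 2, and 0.234, 0.0486 and 0.143 with day 16. Over all groups, 44 of 45 pairs of replicate 1 libraries were above 0.1, 22 of 45 for replicate 2 and 31 of 45 for replicate 3. The numbers may therefore pair libraries across groups, and what they share is not given in the labels. The reported fits hold no replicate term, and the block was run as an alternative only.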

Additional observations from a re-analysis of the deposited data

How the results depend on the processing

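Over all alternatives, the counts of members called higher and lower kept within 1.5 times their reported value except as follows. On the scale of equal FPKM sums, 1 member was lower from day 2 to day 8, 0 were higher from day 8 to day 16 and 0 had a positive difference between the stretches. That last count was also 0 with no filter on low values, where 1452 of 12370 genes were positive. It was 2 after upper quartile rescaling or quantile normalization, where 1487 and 1401 of 8940 genes were. With replicates 2 and 3 only, 1 member was lower from day 2 to day 8, and 3 were higher and 2 lower from day 8 to day 16. Of all 8940 genes, 1559 were lower in the former, and 1356 were higher and 1331 lower in the latter. The cause of these shifts was not tested. With the replicate number as a block, 2 members were higher from day 8 to day 16 and 2 had a positive difference between the stretches. Of all 8940 genes the block gave 1736 higher and 1634 positive. Among the members, Sod2 was gained from day 8 to day 16 (limma adjusted p = 0.0458). For the difference between the stretches Cat was gained as positive (adjusted p = 0.0396) and Sod2 as negative (adjusted p = 0.0229). Beside these and Prdx1 at day 2 the block changed no member's call.

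Leaving out each library in turn gave 1 to 2 members lower from day 2 to day 8, 2 to 3 lower from day 8 to day 16, and 0 to 1 positive between the stretches. Of all 8940 genes, 1382 to 1532, 947 to 1150 and 1051 to 1336 were called in these directions. Values that changed sign belonged to results that had not passed. They were Srxn1 at day 2 after upper quartile rescaling (0.0576) and quantile normalization (0.0514), and Prdx1 from day 8 to day 16 on the scale of equal FPKM sums (-0.00595). The difference between the stretches for Nqo1 was -0.16 on that scale, -0.0037 with replicates 2 and 3 only, and -0.0016 to 0.20 with 1 library left out. The Gclc slope was 0.0018 after upper quartile rescaling, 0.0138 after quantile normalization, 0.0863 on log2 of day, 0.0569 without day 14 and 0.14 without day 16, and -0.048 to 0.0327 with 1 library left out. The Gclm slope was -0.0208 on equal sums and -0.091 without day 16. With no filter Slc7a11 entered the limma fit and was lower at day 16 than in control (-0.49 ± 0.09, adjusted p = 4.66e-05) and than at day 8 (-0.42 ± 0.09, adjusted p = 0.00103), and its slope did not pass (adjusted p = 0.188). Without counts, precision at levels such as that of Slc7a11 cannot be stated.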

Other observations

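Thioredoxin (Txn1), the substrate of Txnrd1, was looked at after its values were seen. It ran from 753 to 2421 FPKM in libraries numbered replicate 1, from 2284 to 4695 in replicate 2 and from 1693 to 8611 in replicate 3. Within a group its libraries therefore differed by far more than those of Txnrd1, and no change between groups is read from it.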
